A study of Populus trichocarpa with 18 samples.

Results

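The 138 genes described here were abundant in tension wood of Populus trichocarpa (black cottonwood) and had a lower level in its normal wood. They were chosen from the 4347 genes listed in both count tables, out of 11294 listed in either. For each gene the counts of the 9 libraries of a wood were added up and expressed per 1000000 counts of that wood (CPM). Genes with a tension CPM at least 4 times the normal CPM were kept, the 150 with the highest tension CPM were taken, and 12 of these, which stand on a list of 17 identifiers given with the rule, were set aside. The choice rests on the tension and normal levels themselves, so every level of tension against normal wood below is a description without a test.

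In a leaning broadleaf stem, tension wood is the wood formed along the upper side. Its fibres shrink along their length and pull the stem back, and in poplar they gain an inner gelatinous layer that is rich in cellulose and poor in lignin. Differentiating xylem is the band of young wood next to the cambium in which cells expand, thicken their walls and, in fibres and vessels, die. Genes that build walls are therefore among the most active in such tissue.

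The tension groups were Region 1, Region 2 and Region 3 of differentiating xylem from wild-type trees whose stems had been held bent for 21 days, and the normal groups were the same regions of normal wood from wild-type trees. The bending protocol (21 days, bend height 115 cm) is given for the samples of both woods alike. The labels do not say whether the trees of the normal groups stood upright. Trees were 5 to 12 months old and grown from cuttings. Bands were cut by laser from 16 µm cross-sections of debarked stem, about 1600000 µm2 of tissue made up each biological replicate of a region, and each of the 6 groups held 3 of these. The labels give neither the order of the regions outward from or inward of the cambium nor the number of trees in a replicate.

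The 9 tension libraries held 8982 to 89358 counts and the 9 normal libraries 6254 to 20080, so levels in normal wood are less precise. A count of 3 stands for 33.6 to 334 CPM in tension libraries and for 149 to 480 CPM in normal libraries. Libraries were made from the 3′ ends of transcripts, so CPM were not divided by gene length. The identifiers could not be matched to gene names or functions (0 of 11294), so genes are given by identifier, no role is stated for them, and the xylem label could not be checked against marker genes. Each wood has a table of its own, so wood and any difference in preparation, sequencing or counting between the tables cannot be told apart.

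The members took 84332 of 426338 tension counts, or 19.8%, and 2029 of 96725 normal counts, or 2.10%. Pooled levels of single members ran from 638 to 7363 CPM in tension wood, with a median of 1052, and from 20.7 to 1685 CPM in normal wood, with a median of 103. The ratio of tension to normal CPM ran from 4.197 to 43.9, with a median of 12.3 and quartiles of 7.29 and 17.5. It was at least 10 in 88 members and at least 20 in 24, and under 5 in 14. Fewer cells of a type and less RNA per cell cannot be told apart in such pooled tissue.

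**Figure D1:**
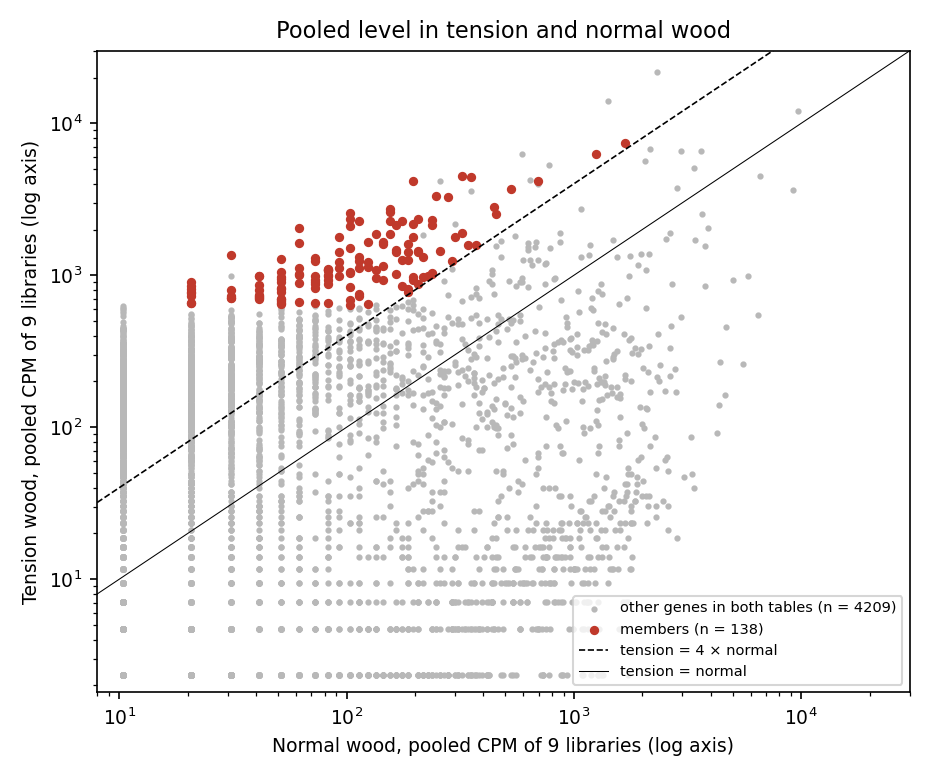
Pooled CPM of each gene in tension wood (vertical log axis) against normal wood (horizontal log axis) for the 4347 genes listed in both tables; red points are the 138 members, the dashed line is the ratio of 4 used to choose them and the solid line is equality. Members lie between 638 and 7363 CPM in tension wood, and their lower edge follows the dashed line because the rule put it there.

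A high ratio was common among genes abundant in tension wood. Of the 233 genes at or above the lowest member's tension CPM, 150 (64.4%) had a ratio of at least 4, against 34.4% of the 4347 genes in both tables. The 150 are those the rule took, and a high tension CPM raises the ratio itself, so nothing is read from the difference. Of the other 81 abundant genes, leaving out the identifiers set aside, 1 was not listed in normal wood. It had no ratio and was not counted among the 150. The remaining 80 had a median ratio of 1.57, and 27 of them were below 1. Members filled 6 of the 20 highest ranks of tension wood and 52 of the 100 highest. In normal wood none of them was among the 100 highest, and their ranks ran from 111 to 2919, with a median of 1296.

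Genes on both sides of the rule's thresholds had like values. Just inside it were Potri.007G062262.v4.1, with a ratio of 4.197, Potri.008G136600.v4.1 with 4.24 and Potri.016G033200.v4.1 with 4.25. Just outside it, within the members' range of tension CPM, were genes with ratios of 3.81, 3.57 and 3.51. The lowest tension levels inside were 643, 643 and 638 CPM, and the next genes in rank, left out, had 636, 629 and 629 CPM. The counting interval of the ratio (exact 95%, counting error only) lay above 4 in 115 members and reached below it in 23.

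The most abundant member was Potri.010G141600.v4.1, which held rank 4 in tension wood. In tension wood it had 7264, 7050 and 7866 CPM in Region 1, 7409, 7475 and 7514 in Region 2 and 7036, 6457 and 7949 in Region 3. In normal wood it had 2444, 2535 and 1419 CPM in Region 1, 1444, 1130 and 1750 in Region 2 and 1523, 1741 and 639.6 in Region 3. All tension libraries were above all normal libraries, by a pooled ratio of 4.37 (counting interval 3.73 to 5.15), which is close to the lower limit of the rule. Potri.019G038352.v4.1 was next, at 6258 CPM in tension wood and 1251 CPM in normal wood when pooled, a ratio of 5.00. Its 9 tension libraries ran from 5223 to 6766 CPM around a median of 6235, and its 9 normal libraries from 710 to 1835 CPM around a median of 1015.

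Below these, members of like tension level differed widely in normal level. Potri.011G166250.v4.1 had 4487 CPM in tension wood and 320 CPM in normal wood, Potri.009G085100.v4.1 4154 and 693 CPM, and Potri.006G220700.v4.1 4142 and 196 CPM, so the ratio ranged from 6.0 to 21.1 among genes of nearly equal tension level. The 10 most abundant members made up 22.2% of the members' tension counts. Across the 138 members, the pooled tension and normal levels had a Spearman correlation of 0.68, against 0.17 across the 4347 genes in both tables and 0.52 across the other abundant genes. These correlations are across genes of the same 2 sets of pooled libraries, and the rule shapes the members' value.

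The highest ratios rested on very few normal counts. Potri.005G007300.v4.1 had 387 counts in tension wood and 2 in normal wood, a ratio of 43.9 with a counting interval from 12.1 to 364. Potri.003G143200.v4.1 had 577 and 3 counts, a ratio of 43.6 with an interval from 14.9 to 212. In tension wood its 9 libraries ran from 1097 to 2227 CPM, while 6 of its 9 normal libraries held no count. Of the 138 members, 13 had 3 normal counts or fewer in all 9 libraries together, and 73 had 10 or fewer.

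**Figure D2:**
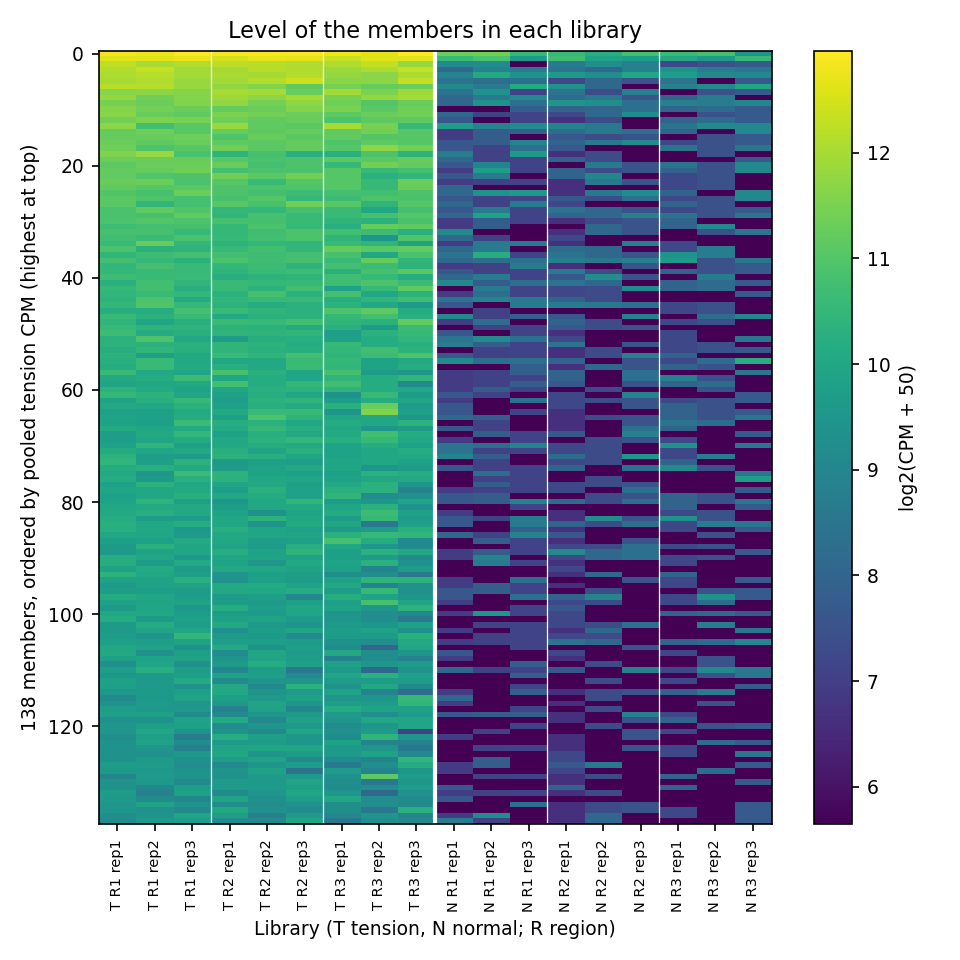
Level of each of the 138 members (rows, ordered by pooled tension CPM) in each of the 18 libraries (columns, tension left of normal), as log2(CPM + 50) of the library total; the darkest cells hold 0 counts. Every member has a count in every tension library, whereas 67 to 117 of the 138 have one in a normal library.

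Every member had at least 1 count in each of the 9 tension libraries. In normal libraries 67 to 117 of the 138 members had a count; 12 members had one in all 9 normal libraries and 28 in 3 or fewer. With every library thinned to 6254 counts, the smallest total, 136 to 138 members had a count in a tension library and 63 to 76 in a normal library. As the rule chose members for their levels in these libraries, nothing is read from the difference in detection.

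For 127 of the 138 members all 9 tension libraries were above all 9 normal libraries in CPM. This pattern was found in 11.7% of the 4347 genes in both tables, and since the rule used the same contrast nothing is read from the difference. At equal depth the count was 85 members, beside 2.83% of the genes in both tables. In the other 11 members the groups overlapped. The lowest tension library was a Region 3 library, the shallowest tension group, in 8 of these 11. In Potri.002G049400.v4.1, for example, the tension libraries ran from 85.5 to 1007 CPM with a median of 639, and the normal libraries from 0 to 135 CPM with a median of 0.

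The ratio was also read in libraries whose levels were not used to pick the genes. The rule was applied to 2 replicate numbers of both woods at a time and the ratio was read in the third. The genes open to choice were still the 4347 listed in both tables, which hold all 3 replicates. The shares over all genes given beside are not limited to genes of like abundance. Without replicate 1 it chose 139 genes, 132 of them among the 138 members, and 128 of the 139 (92.1%) had a ratio of at least 4 in replicate 1, where 40.5% of all genes in both tables had one. Without replicate 2 it chose 138 genes, 128 of them members, and 123 (89.1%) passed in replicate 2, beside 45.2% of all genes. Without replicate 3 it chose 138 genes, 132 of them members, and 125 (90.6%) passed in replicate 3, beside 42.3% of all genes. The ratio of summed levels in the replicate left out was 8.98, 8.34 and 8.95, against 9.35, 9.56 and 10.0 in the replicates used for the choice. Genes without a normal count in the replicate left out, 9, 16 and 21 of the chosen ones, were counted as passing. In none of the 3 cases was a chosen gene at or below its normal level in the replicate left out. The split is over replicates of the same 2 tables, so it bears on replicate spread and not on a difference between the tables.

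The ratio was also present within each region, in the same counts that the rule added up. Nothing is therefore read from the difference between the members and all genes. In Region 1, 130 of the 138 members had a tension level at least 4 times the normal one (41.9% of all genes in both tables did), in Region 2 131 (41.8%) and in Region 3 126 (40.5%). Among members with a normal count in the region, the median ratio was 10.5 in Region 1, 11.8 in Region 2 and 10.4 in Region 3. The lowest single ratios were 3.09, 2.83 and 2.07 in the same order. No member counted in normal wood was under 2 in any region. Another 9, 6 and 16 members had 0 normal counts in Regions 1, 2 and 3.

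The members' share of all counts was close in all tension libraries and in all normal libraries. It was 20.3%, 20.2% and 19.6% in tension Region 1, 19.6%, 19.5% and 19.7% in tension Region 2 and 18.7%, 19.1% and 19.1% in tension Region 3. In normal wood it was 2.21%, 2.64% and 2.05% in Region 1, 2.03%, 1.86% and 2.03% in Region 2 and 2.02%, 1.83% and 2.06% in Region 3. The group means were 20.02% ± 0.37, 19.6% ± 0.088 and 18.97% ± 0.22 in tension wood and 2.30% ± 0.31, 1.97% ± 0.096 and 1.97% ± 0.13 in normal wood (SD, n = 3). Region 3 lay below Region 1 in all 3 tension replicates, by 1.57, 1.09 and 0.499 percentage points, and in 2 of 3 normal replicates. The depth of the tension groups fell in the same order, averaging 81032 counts a library in Region 1, 44996 in Region 2 and 16085 in Region 3, and its part in the share was not tested.

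**Figure D3:**
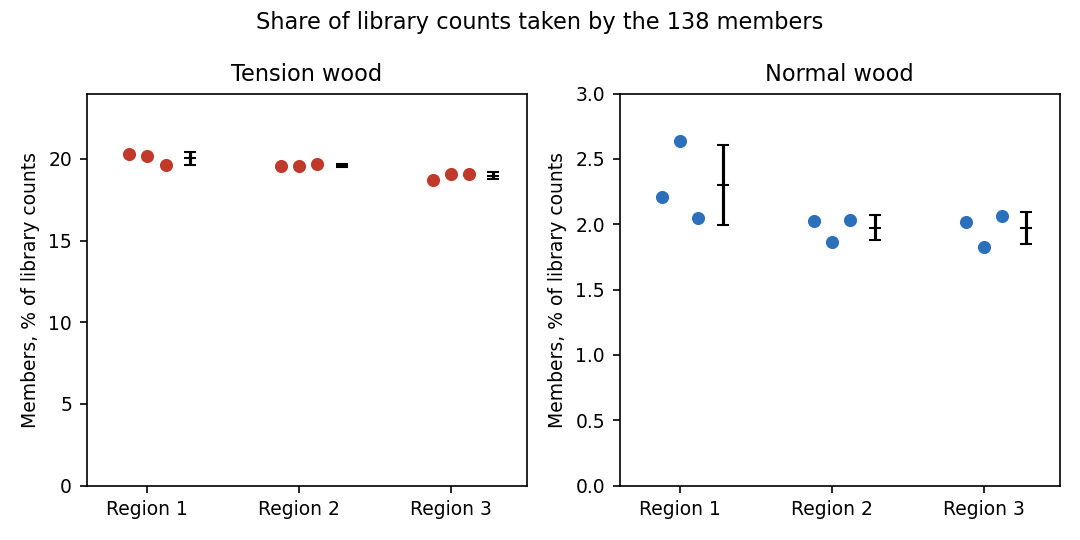
Share of each library's counts taken by the 138 members, in percent, in tension wood (left, axis to 24%) and normal wood (right, axis to 3%); points are libraries and the bars beside them the mean ± SD of 3 replicates. Tension libraries lie between 18.7% and 20.3%, normal libraries between 1.83% and 2.64%.

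Regions were then compared within tension wood, a contrast that the rule did not use, as it added the regions together. It is not wholly free of the rule, since Region 1 supplied 57.0% of the tension counts and thereby weighed most in the choice of abundant genes. All 138 members passed the filter on low counts and were tested with 1033 other genes by the quasi-likelihood F test of edgeR, with the replicate number as a block and Benjamini-Hochberg adjustment over all 1171 genes. The members' median log2 fold change was 0.01 for Region 2 over Region 1, -0.06 for Region 3 over Region 1 and -0.05 for Region 3 over Region 2, beside medians of 0.01, -0.01 and -0.02 over all genes tested and of 0.02, 0.00 and 0.01 over the other 81 abundant genes. The members' median for Region 3 over Region 1 moved with the filter and with the replicates used. It was -0.17 at a minimum count of 3 (all genes -0.15), -0.33 with no low-count filter (all genes -0.43), -0.15 without replicate 1 (all genes -0.09) and -0.13 without replicate 3 (all genes -0.03).

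Few genes of any kind were called between regions of tension wood, too few to compare the members with all genes. Region 2 over Region 1 had 0 members called higher and 1 lower, beside 1 and 1 of all 1171 genes (0.0854% each). An unadjusted edgeR p under 0.05 was found in 6 members higher and 4 lower, beside 33 and 17 of all genes (4.27% in all). Region 3 over Region 1 had 0 members called higher and 2 lower, beside 2 and 2 of all genes (0.171% each). There an unadjusted edgeR p under 0.05 was found in 4 members higher and 7 lower, beside 49 and 29 of all genes (6.66% in all). For Region 3 over Region 2 edgeR called 0 of the 1171 genes (0%), and DESeq2 also called 0; an unadjusted p under 0.05 was found in 56 genes (4.78%), among them 3 members higher and 4 lower. For members not called, the interval of the change gives the bound. The 95% interval of the log2 fold change lay wholly within -1 and 1, which is a change of less than 2-fold, in 132 of 138 members (95.7%) for Region 2 over Region 1, in 112 (81.2%) for Region 3 over Region 1 and in 106 (76.8%) for Region 3 over Region 2. The median standard error was 0.24, 0.29 and 0.30. Without replicate 1 the interval was within these bounds in 117 members for Region 2 over Region 1, in 62 for Region 3 over Region 1 and in 65 for Region 3 over Region 2. After thinning, which left 94 members to test, it was within them in 40, 51 and 44 members, in the same order.

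**Figure D4:**
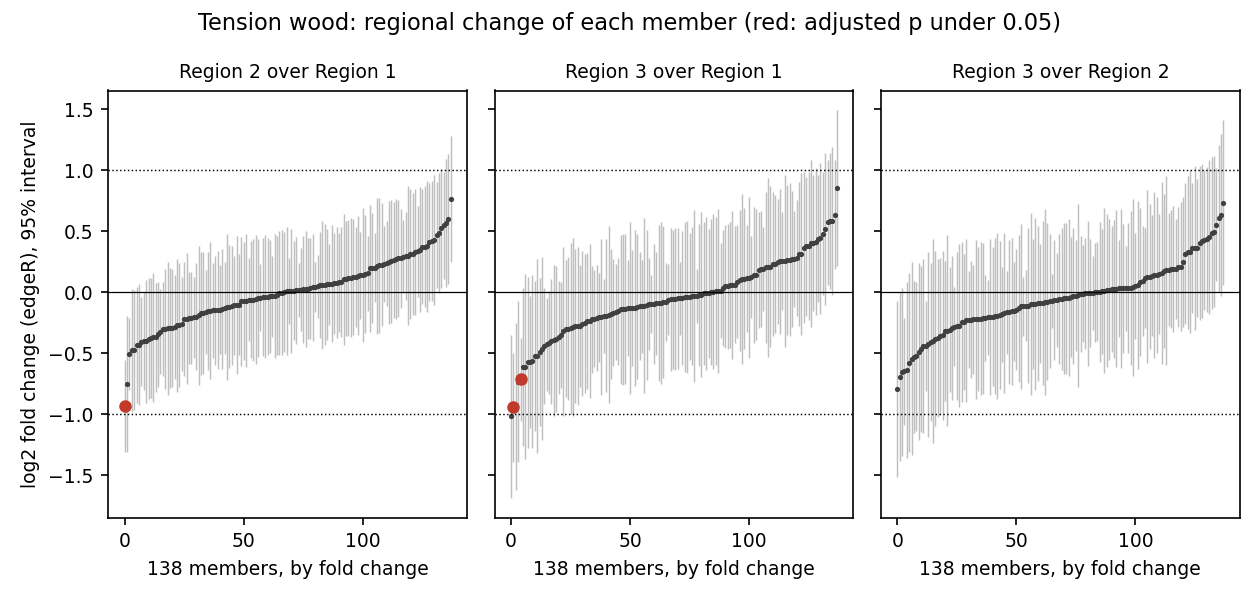
Log2 fold change of each of the 138 members between regions of tension wood (points) with its 95% interval from edgeR (grey lines), each panel sorted by fold change; red points have an adjusted p under 0.05 and dotted lines mark a 2-fold change. For Region 2 over Region 1, 132 intervals lie within the dotted lines, and the red points are 1 member there and 2 members for Region 3 over Region 1.

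Potri.015G129400.v4.1 was lower outside Region 1. In tension wood it had 2960, 3615 and 1809 CPM in Region 1, 1303, 1771 and 1193 CPM in Region 2 and 1197, 1893 and 1282 CPM in Region 3. Region 1 was the highest region within each replicate, and the Region 2 libraries did not overlap with those of Region 1. The log2 fold change was -0.93 for Region 2 over Region 1 (SE 0.19, edgeR adjusted p = 0.0064) and -0.94 for Region 3 over Region 1 (SE 0.22, edgeR adjusted p = 0.031), lower in 3 of 3 replicates each. Its normal counts were 14 of 17 in Region 1, with 370, 87.4 and 710 CPM there, 49.8, 113 and 0 CPM in Region 2 and 0, 124 and 0 CPM in Region 3; it did not pass the filter in normal wood and was not tested there.

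Potri.013G157900.v4.1 was lower in Region 3. In tension wood it had 4575, 4488 and 3603 CPM in Region 1, 3475, 3064 and 2285 CPM in Region 2 and 2756, 2338 and 2479 CPM in Region 3, so that all Region 3 and Region 2 libraries were below all Region 1 libraries. The log2 fold change for Region 3 over Region 1 was -0.71 (SE 0.17, edgeR adjusted p = 0.031), lower in 3 of 3 replicates. For Region 2 over Region 1 it was -0.50 (SE 0.15, edgeR adjusted p = 0.363). In normal wood its group means were 644 ± 374, 275 ± 302 and 621 ± 297 CPM in Regions 1 to 3 (SD, n = 3).

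Both sets of calls depended on the tool and on single replicates. DESeq2 gave like log2 fold changes, -0.95 for Potri.015G129400.v4.1 in Region 2 (adjusted p = 0.132), and -0.96 for it and -0.73 for Potri.013G157900.v4.1 in Region 3 (adjusted p = 0.464 each), but made none of the calls. Likewise, without replicate 1 or replicate 2 edgeR called neither gene (adjusted p from 0.155 to 0.900 for Region 2 over Region 1 of Potri.015G129400.v4.1, and 0.234 to 0.815 for Region 3 over Region 1 of both). Their log2 fold changes without 1 replicate remained between -1.13 and -0.84 for Potri.015G129400.v4.1 in Region 2, between -1.18 and -0.82 for it in Region 3 and between -0.86 and -0.63 for Potri.013G157900.v4.1 in Region 3. Without replicate 3 edgeR made all 3 calls (adjusted p from 0.0075 to 0.032). After thinning to equal depth Potri.015G129400.v4.1 did not pass in Region 2 (log2 fold change -0.58, edgeR adjusted p = 0.576) or in Region 3, where its log2 fold change was -0.21 (edgeR adjusted p = 0.895). Potri.013G157900.v4.1 passed in Region 3 after thinning (log2 fold change -1.02, edgeR adjusted p = 0.012). Without the replicate block Potri.013G157900.v4.1 did not pass in Region 3 (log2 fold change -0.70, edgeR adjusted p = 0.053).

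**Figure D5:**
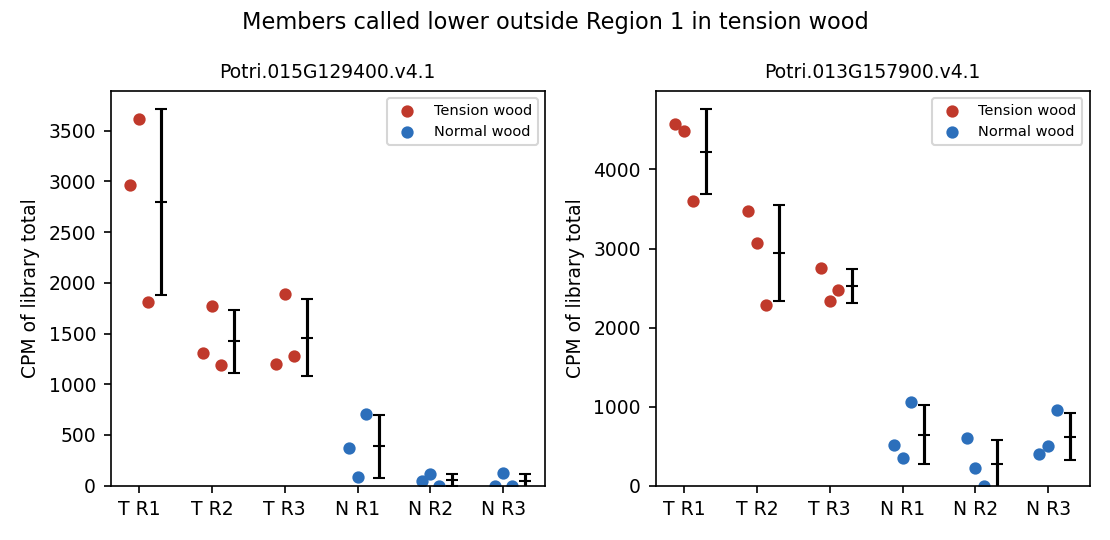
CPM of Potri.015G129400.v4.1 (left) and Potri.013G157900.v4.1 (right) in each library of tension wood (red) and normal wood (blue), Regions 1 to 3 (R1 to R3); points are libraries, bars the mean ± SD of 3 replicates, cut at 0. In tension wood the Region 2 libraries of both genes lie below their Region 1 libraries.

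Other members had regional differences that did not pass. Potri.004G143200.v4.1 had the most negative value for Region 3 over Region 1, with 580, 557 and 342 CPM in tension Region 3 against 1288, 974 and 843 CPM in tension Region 1 (log2 fold change -1.02, SE 0.33, edgeR adjusted p = 0.277). Potri.011G033100.v4.1 had the most positive value for Region 3 over Region 1, with 617, 2227 and 769 CPM in tension Region 3 against 452, 716 and 644 CPM in tension Region 1 (log2 fold change 0.85, SE 0.32, edgeR adjusted p = 0.422). Its highest Region 3 value, in replicate 2, stood for 20 counts in a library of 8982. Both were singled out after their values were seen.

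Across members the mean level was highest in Region 1 for 62, in Region 2 for 41 and in Region 3 for 35. Among the other 81 abundant genes these counts were 30, 24 and 27. The highest regional mean was a median of 1.25 times the lowest in the members and 1.24 times in the other abundant genes; it was under 1.5 times in 116 members and at least 2 times in 1. The direction of change was the same in all 3 replicates for 26 members higher and 30 lower in Region 2 against Region 1, beside 11.5% and 15% of the 1769 genes with a count in every tension library. For Region 3 against Region 1 it was 15 higher and 29 lower, beside 13.3% and 12.8% of all genes, and for Region 3 against Region 2 16 higher and 23 lower, beside 14.8% and 10.1%. In either direction these were 40.6%, 31.9% and 28.3% of the members, beside 26.5%, 26.1% and 24.9% of all 1769 genes. The 1769 genes are not limited to genes of like abundance, so nothing is read from the difference. Among the other 81 abundant genes they were 13 higher and 15 lower, 11 and 15, and 6 and 7, in the same order of comparisons. For each replicate the members' median log2 change of Region 3 over Region 1, on library totals, was -0.11, -0.09 and -0.11 in replicates 1 to 3, and that of the other abundant genes 0.02, -0.05 and -0.04.

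The members varied between replicates about as much as other genes of that level. The median biological coefficient of variation estimated by edgeR over the tension libraries was 0.169 in the members, 0.167 in the other 81 abundant genes and 0.214 over all 1171 genes tested. In normal wood 2 of the 138 members passed the filter, and these were the most abundant ones described above. For Potri.010G141600.v4.1 the log2 fold change in normal wood was -0.61 for Region 2 over Region 1 (SE 0.42, edgeR adjusted p = 0.830) and -0.77 for Region 3 over Region 1 (SE 0.44, edgeR adjusted p = 0.537). For Potri.019G038352.v4.1 these values were -0.27 (SE 0.45, adjusted p = 0.904) and -0.41 (SE 0.48, adjusted p = 0.798). Neither member was called in normal wood in any of the 3 comparisons by edgeR or DESeq2, and neither had an unadjusted p under 0.05. Of the 318 genes tested in normal wood edgeR called 0 (0%) for Region 2 over Region 1 and for Region 3 over Region 2 and 0.314% as lower for Region 3 over Region 1, and 4.09%, 6.6% and 8.49% of them had an unadjusted p under 0.05 in these comparisons, in that order.

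The difference between the woods in the regional change was fitted over all 18 libraries for the 131 members that passed the filter there. The TMM factors, which edgeR uses to put libraries on 1 scale, ran from 1.36 to 1.43 in normal libraries. In tension libraries they were 0.444 to 0.506 in Region 1, 0.634 to 0.701 in Region 2 and 0.834 to 1.54 in Region 3. The scaling thus differed along the regions compared. The median log2 difference over all 573 genes tested was -0.43 for Region 2 over Region 1 and -1.34 for Region 3 over Region 1. Relative to these medians the members' medians were 0.11 and 0.27. The sign of these relative values turned under other settings. It was -0.10 with DESeq2 and -0.04 without replicate 2 for Region 3 over Region 1, and for Region 2 over Region 1 it was -0.01 without replicate 2. For Region 2 over Region 1 edgeR and DESeq2 called 0 genes of 573 (0%); in edgeR 56 (9.77%) had an unadjusted p under 0.05, among them 4 members lower and 0 higher. For Region 3 over Region 1 edgeR called 2 members lower and 0 higher, beside 8.55% and 0% of all genes (25.3% at an unadjusted p under 0.05), and under library totals or with DESeq2 it was 0 members. The median standard error of the members' difference was 1.11 and 1.33, and the 95% interval lay within -1 and 1 in 5 of the 131 members for Region 2 over Region 1 and in 1 for Region 3 over Region 1.

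By their prefix, which names the chromosome by the convention of these identifiers, the members came from all 19 chromosomes. Prefix 017 held 11 members, or 7.97% of them, and 3.13% of the genes in the tension table. It is given because, of the 19 prefixes, its share of members stood furthest above its share of that table. The tension table also holds genes that the rule could not choose, and genes set aside were not counted as members. Nothing is therefore read from this difference. Prefix 001 held 16 members (11.6%) and 11.6% of the tension table, and prefix 012 held 1 member (0.725%) and 3.41%. Only 1 pair of members had numbers no more than 100 apart, Potri.013G067300.v4.1 and Potri.013G067400.v4.1. Potri.013G067300.v4.1 and Potri.013G067400.v4.1 had 643 and 673 CPM in tension wood, and 124 and 51.7 CPM in normal wood, in that order. Tags of near-identical genes may be split between copies, and the labels do not say how such tags were counted.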

How the data were processed

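The files were deposited by the authors as whole-number counts per gene and library, 1 table for tension wood and 1 for normal wood. The submitters' processing notes name the tools featureCounts, STAR and UMI-tools; their versions and settings, the genome build and whether a count is a read or a molecule were not given in the sources used here. Intervals and floors therefore cover counting error only. All columns matched a labelled sample, and 0 were unused; 0 of 18 replicate pairs were identical or agreed within sampling noise by a chi-square test.

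Members and lists were chosen with earlier results of these data known. Each of the 21 lists fixed by gene description could not be evaluated, because the RefSeq table for P.trichocarpa_v4.1 matched 0 identifiers. Named genes were the most abundant members, those called between regions, those beside the threshold and those of highest ratio, kept to few because the table used here gave no description for them.

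Region comparisons used edgeR 4.0.16 in R 4.3.3 (TMM, filterByExpr with a minimum count of 10, quasi-likelihood F test, Benjamini-Hochberg adjusted p under 0.05), tested on simulated data first. The replicate number, which the titles share across the regions of a wood, was a block; the labels do not say that regions of 1 number came from the same trees. In the main fit the p-values set the regional change against the variation between libraries that is left after the block. Alternatives were DESeq2 1.42.0, other scaling and filters, thinning and leaving out each replicate.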

Additional observations from a re-analysis of the deposited data

Results flagged for a closer look

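Both members called for a difference between the woods in the change of Region 3 over Region 1 are listed here because the test of that difference passed. For Potri.013G157900.v4.1 the log2 difference, tension minus normal, was -1.93 (SE 0.66, edgeR adjusted p = 0.043). It had 126 counts in Region 3 and 1041 in Region 1 of tension wood, and 14 and 23 in the same regions of normal wood, summed over replicates. Set against the median of all genes in that fit, -1.34, its difference was -0.59, and under library totals it was -0.57 (edgeR adjusted p = 0.837). Without the replicate block it did not pass (edgeR adjusted p = 0.057).

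For Potri.009G044600.v4.1 the log2 difference was -3.16 (SE 1.09, edgeR adjusted p = 0.045), or -1.83 relative to the median of all genes and -1.88 under library totals (edgeR adjusted p = 0.802). It had 34 and 202 counts in Regions 3 and 1 of tension wood, and 7 and 3 in Regions 3 and 1 of normal wood. Without replicate 1, replicate 2 or replicate 3, neither gene passed (edgeR adjusted p from 0.051 to 0.900), and with DESeq2 the adjusted p was 0.964 for both. The cause of these differences was not tested.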

How the results depend on the processing

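The number of members with a tension level at least 4 times the normal level was 138 by construction. It was 135 with the mean of library CPM, 127 with TMM-scaled CPM, 134 to 138 without 1 replicate of either wood and 132 after thinning, an alternative chosen after seeing the data, as were the choice on 2 of 3 replicates and the fit of 18 libraries on library totals.

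Members called for Region 2 over Region 1 of tension wood numbered 1 in the main test, 0 with DESeq2 or after thinning, 2 with all 18 libraries in 1 fit, and 0 to 1 without 1 replicate (0 without replicate 1 or 2). For Region 3 over Region 1 they numbered 2, against 0 with DESeq2, 1 with no replicate block, 1 after thinning, 0 to 2 without 1 replicate (0 without replicate 1 or 2), 124 with all 18 libraries in 1 fit and 0 in that fit on library totals. For Region 3 over Region 2 the fit of 18 libraries called 26 members, against 0 in the main test and 0 on library totals. In that fit the TMM factors of tension libraries rose from 0.444 to 0.506 in Region 1 to 0.834 to 1.54 in Region 3. The scaling thus differed along the regions compared. The median of all genes moved to -1.34 for Region 3 over Region 1. For the difference between woods in Region 3 over Region 1, 2 members were called in the main test, 0 under library totals, with DESeq2 or at a minimum count of 3, 1 with no replicate block, and 0 to 1 without 1 replicate. The replicate block changed no other count of members. Same-numbered libraries of a wood had deviations with a median correlation of -0.06 in tension wood and 0.03 in normal wood, so the data do not show that the numbers pair the regions. In normal wood 0 members were called under each alternative run.

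With genes of both tables as the denominator, the members' share was 23.0%, 22.6% and 21.9% in Regions 1 to 3 of tension wood and 2.49%, 2.13% and 2.12% in Regions 1 to 3 of normal wood. Depth in normal wood limits the precision of single members, as 73 of 138 had 10 or fewer normal counts.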
